A study of Mus musculus with 39 samples.

Results

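The 9 genes described here, Cd68, Emr1, Itgax, Itgam, Csf1r, Trem2, Gpnmb, Lgals3 and Spp1, mark macrophages of adipose tissue, and among them those of inflamed or lipid-loaded fat. They were taken by gene name, with all of their probes, from the 29411 gene names and 40628 probes of the array, which gave 9 genes and 16 probes. The study took subcutaneous fat from C57BL/6J mice, weaned at 3 to 4 weeks of age, and hybridised its RNA to 39 Agilent 1-colour arrays. A low-fat control diet (LFC, 10% of calories from fat) had 10 arrays. A high-fat, high-sucrose diet (HFC, 60% of calories from fat) had 11, and the same diet with KAL-1, a botanical formulation in water, had 6 at each dose, which was 5 µg in HF5, 20 µg in HF20 and 75 µg in HF75. LFC and HFC can be set side by side at 10 times. These are 6 late ones, spaced 3 weeks apart between Week 3 and Week 18, which the KAL-1 diets share, and 4 early ones, Week 0 and Day 6, Day 10 and Day 14. A single HFC array came from Day 1. The labels do not place Week 0 against the days. The study's methods, written for the liver, count weeks from Day 14, by which Day 14 and Week 0 would be the same time. Each of them had its own pair of arrays and entered as a time point of its own. The labels do not say whether an array held RNA of 1 of the 5 mice killed at a time or of several. A diet was measured on a single array at each time, so n counts arrays, and the p values measure the spread of diet differences between time points. For Week 3 to Week 18 all diets were fitted together, so that spread is pooled over the diets.

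Macrophages of lean fat live along vessels between the adipocytes and clear dying cells and debris. In obese fat, monocytes enter the tissue and become macrophages that surround dead adipocytes in crown-like structures, where they take up lipid and break it down in lysosomes. Such lipid-associated macrophages are known for the lipid receptor Trem2 and for Gpnmb, Lgals3 and Spp1. The integrin encoded by Itgax is carried by macrophages of inflamed fat. Cd68, Emr1 and Csf1r are found on most tissue macrophages, whatever their state. In bulk tissue, fewer macrophages and less of a transcript in each macrophage cannot be told apart.

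All levels are log2 intensities with the 75th percentile of the array set to 0, and a difference of 1 on this scale is a 2-fold difference. Between 49.3% and 87.8% of an array's spots were well above background (65.7% on the median array), and the number of spots flagged as outliers ran from 17 to 4936, with the highest value on the HF20 array of Week 15. The 7 adipocyte markers were well above background on every array, with mean levels from 0.99 to 5.33. Skeletal muscle genes varied the most. The mean level of 6 of them was above 4 on 5 arrays, namely HFC at Day 1 (6.25), LFC and HFC at Day 6 (4.61 and 5.44), HF5 at Week 12 (6.47) and HF75 at Week 3 (7.58), and was at most 3.51 on the others. Lymphocyte markers were highest on the LFC array of Week 3 (mean level 1.45). In the deposited table of ratios, the Week 12 column named HF5 followed the HF20 array (r = 0.9995 across genes) and not its own array (r = 0.668), and the column named HF20 followed the HF5 array (r = 0.9997, own array 0.671). The names on the arrays were used here, and values with that pair exchanged are given where they differ.

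A level on the array is the signal of a 60-base probe. The only probe of Cd68 and the main probe of Lgals3 are shown, 5′ to 3′ in lower case, as examples of what was measured, because both genes had an unadjusted p under 0.05 in HFC against LFC and in HF75 against HFC. The array files give no position for them within the transcript.
Cd68: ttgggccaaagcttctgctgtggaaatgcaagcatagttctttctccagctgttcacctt
Lgals3: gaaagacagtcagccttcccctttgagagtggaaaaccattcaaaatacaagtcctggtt
Gene levels below are those of the probe with the highest mean over the arrays. Cd68, Itgax and Spp1 had 1 probe each, Csf1r had 3, and the other 5 genes had 2. No probe of the 9 genes was saturated on any array, and all 9 genes passed the filter on dim probes in every comparison, while of the 16 probes only the second of Gpnmb failed it.

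Promoter windows from RefSeq (GRCm38.p6), from 250 bases before to 50 bases after a transcription start, were at hand for 7 of the 9 genes. They were searched on both strands for GAGGAA, the core of sites of PU.1, the factor that macrophage genes depend on. They were also searched for TCACGTG, a core that the lysosome regulators MITF and TFEB bind, and for TGANTCA, the AP-1 site. TGANTCA reads the same on both strands. GAGGAA was found in 4 of the 7 genes (Cd68, Itgam, Spp1 and Trem2) and in 28.3% of all 32851 windows. TGANTCA was found in 4 (Cd68, Gpnmb, Itgax and Trem2) and in 7.81% of all windows, and TCACGTG in 0 and in 3.77%. The 250 bases upstream of 4 of these genes are shown because they hold such matches, which stand in capitals (TTCCTC is GAGGAA on the opposite strand). Those of Cd68 lie at chr11:69666171-69666420 on the minus strand, those of Itgax at chr7:128129300-128129549, those of Itgam at chr7:128062390-128062639 and those of Trem2 at chr17:48346151-48346400, all 3 on the plus strand.
Cd68: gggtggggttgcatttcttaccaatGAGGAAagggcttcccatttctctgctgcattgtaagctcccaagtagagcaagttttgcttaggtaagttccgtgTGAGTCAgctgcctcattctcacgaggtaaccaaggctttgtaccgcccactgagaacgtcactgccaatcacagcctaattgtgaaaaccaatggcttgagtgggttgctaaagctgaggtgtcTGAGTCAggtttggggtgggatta
Itgax: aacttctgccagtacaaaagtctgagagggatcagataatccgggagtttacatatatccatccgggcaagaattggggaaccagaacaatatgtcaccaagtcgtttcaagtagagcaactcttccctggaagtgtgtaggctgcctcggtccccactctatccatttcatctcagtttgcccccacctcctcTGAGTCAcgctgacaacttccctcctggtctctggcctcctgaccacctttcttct
Itgam: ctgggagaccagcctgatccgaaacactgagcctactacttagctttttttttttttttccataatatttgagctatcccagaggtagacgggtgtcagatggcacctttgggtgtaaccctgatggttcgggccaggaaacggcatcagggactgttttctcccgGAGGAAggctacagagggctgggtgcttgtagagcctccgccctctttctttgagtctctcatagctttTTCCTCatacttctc
Trem2: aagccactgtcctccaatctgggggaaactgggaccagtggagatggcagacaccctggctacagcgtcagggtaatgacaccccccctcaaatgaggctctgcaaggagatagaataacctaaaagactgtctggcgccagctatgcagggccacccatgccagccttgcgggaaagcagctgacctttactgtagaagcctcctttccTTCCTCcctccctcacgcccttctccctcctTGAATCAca
A match says only that these letters are in the window.

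The first comparison asked how the high-fat diet changed the macrophage genes. All 9 had a higher mean in HFC than in LFC over the 10 shared time points, by 0.55 to 1.28 on the log2 scale, with a median of 0.93 against -0.04 over all 19876 genes tested. By limma, 6 of the 9 had an unadjusted p under 0.05 (Cd68, Emr1, Itgax, Trem2, Gpnmb and Lgals3), while 1.96% of all genes had such a p with a higher mean in HFC. None of the 9 passed after adjustment over all genes, and neither did any other gene (0 of 19876, with 1165 at an unadjusted p under 0.05). The ranges of the diets overlapped for each of the 9 genes. The count of 6 fell to 3 without Day 14 and to 3 without Week 6, and was 2 in an unmoderated comparison of group means. Counts of the 9 under alternatives, here and below, stand without the share of all genes unless one is given. A larger count is then not by itself stronger support.

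Among the general macrophage markers, Cd68 encodes a lysosomal membrane protein. It ran from -1.05 (Week 18) to 1.25 (Week 6) in LFC with a median of 0.16, and from -1.82 (Day 1) to 2.92 (Week 6) in HFC with a median of 0.75. HFC exceeded LFC at 7 of the 10 time points, by 1.05 on average (SE 0.35, p = 0.0109, limma adjusted p = 0.803). Emr1, which encodes F4/80, the classical surface marker of mouse macrophages, ran from 1.43 to 2.72 in LFC and from 0.71 to 3.94 in HFC, with medians of 1.99 and 2.51. Its highest values in these diets were the HFC arrays of Day 10 (3.94) and Day 14 (3.80). The mean difference was 0.69 (SE 0.31, p = 0.0488). Csf1r encodes the receptor that macrophages need to survive and ran from -0.25 to 2.40 in LFC and from -0.27 to 2.86 in HFC. Its difference of 0.62 (SE 0.41, p = 0.163) was within the spread between time points.

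Of the pair of leukocyte integrins, Itgax encodes CD11c, carried by dendritic cells and by the macrophages of inflamed fat. Its level ran from -3.35 (Day 10) to -0.32 (Week 3) in LFC, with a median of -2.73, and from -5.78 (Day 1) to 2.18 (Week 6) in HFC, with a median of -1.15. HFC exceeded LFC at 8 of 10 time points, by 1.23 on average (SE 0.52, p = 0.0371). The HFC array of Week 6 stood above every other array for Itgax, and the LFC array of Week 3, the one with the most lymphocyte transcripts, was the highest of LFC. The 7 dendritic cell markers all had lower means in HFC over the 10 time points, with differences from -1.16 to -0.08 and 0 of 7 at an unadjusted p under 0.05. Itgam, which encodes CD11b of monocytes, macrophages and neutrophils, ran from -3.82 to -0.66 in LFC and from -4.34 to -1.38 in HFC, and differed by 0.55 (SE 0.30, p = 0.0912). That direction turned under normexp background correction, where the difference was -0.024.

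The genes of lipid-associated macrophages gave the 3 smallest p values of the 9 at the late time points. Trem2, a receptor that senses lipids and dying cells, ran from 0.55 (Week 12) to 1.64 (Week 6) in LFC over Week 3 to Week 18, with a median of 1.08, and from 0.66 (Week 3) to 4.43 (Week 6) in HFC, with a median of 2.22. It was higher in HFC at 5 of these 6 weeks, by 1.30 on average (SE 0.42, p = 0.00528, limma adjusted p = 0.850). Gpnmb, a membrane glycoprotein of lysosome-rich macrophages, ran from -1.93 to 0.25 in LFC and from -1.72 to 3.04 in HFC over the same weeks, and was higher by 1.82 (SE 0.58, p = 0.00456). Lgals3, which encodes the sugar-binding galectin-3, ran from 1.20 to 3.93 in LFC and from 3.14 to 6.41 in HFC, and was higher by 1.24 (SE 0.51, p = 0.0232). Each of these 3 genes was higher in HFC at every week but Week 3.

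Spp1 encodes osteopontin, a secreted protein that draws macrophages into fat. Over the late weeks it ran from -1.83 (Week 18) to 2.24 (Week 3) in LFC and from 0.13 (Week 9) to 1.999 (Week 6) in HFC, and differed by 1.31 (SE 0.65, p = 0.0546). Of the general markers and integrins, Emr1 differed by 0.26 (SE 0.48), Csf1r by 0.39 (SE 0.60) and Itgam by 0.03 (SE 0.52), while Cd68 and Itgax differed by 1.08 (SE 0.55) and 1.17 (SE 0.67). The direction of Itgam was not settled, since it was -0.44 under normexp, -0.015 under quantile normalization and -0.25 with the scan day as block. In all, 3 of the 9 genes had an unadjusted p under 0.05 with a higher mean in HFC, against 2.26% of all 21092 genes tested in the late weeks. The count was 6 without Week 3, and 2 without Week 6 or without Week 18. Whether the lipid-associated genes differed more than the general markers was not tested.

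**Figure D1:**
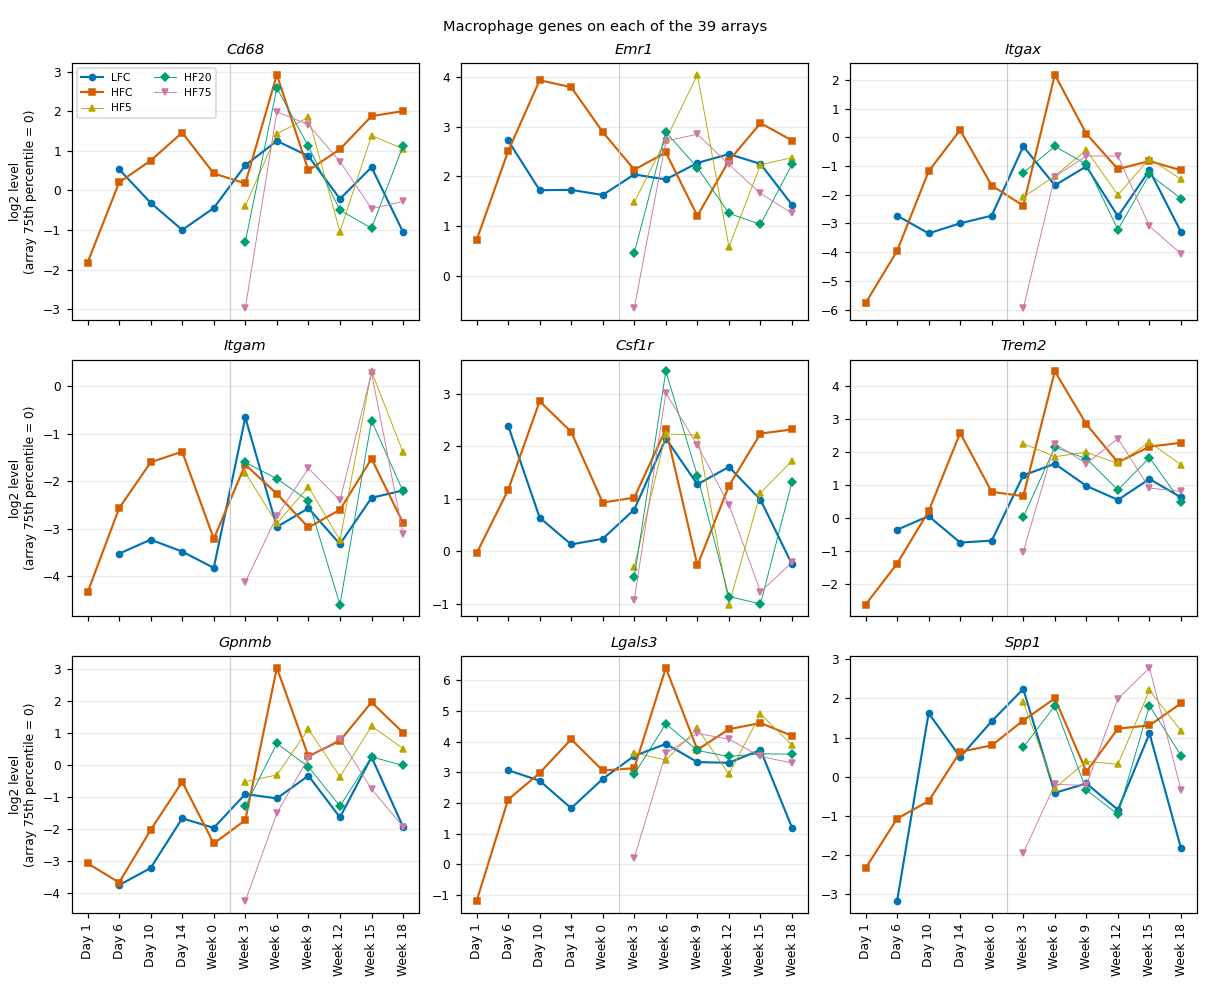
Level of each of the 9 genes (log2, vertical axis, array 75th percentile at 0) on the 39 arrays by time point (horizontal axis, in the order days then weeks, not to scale), with 1 point per array and a colour and symbol for each diet. HFC at Week 6 was the highest of all arrays for 5 of the genes, and HF75 at Week 3 was the lowest for 4.

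Markers of other cell types were read in the same comparison. Over Week 3 to Week 18 the 6 muscle genes all had lower means in HFC than in LFC (median difference -1.79, 0 of 6 at an unadjusted p under 0.05), with mean levels from -4.67 to 0.23 in HFC and from -3.45 to 1.65 in LFC. The 9 lymphocyte markers were also all lower in HFC (median difference -1.45, 2 of 9 at an unadjusted p under 0.05), with mean levels from -5.15 to -1.45 in HFC and from -3.51 to 1.45 in LFC. None of these markers was at background on every late array of either diet. Of 10 neutrophil markers, 1 had a higher mean in HFC and the median difference was -1.22, with mean levels from -5.07 to -0.65 in HFC and from -3.74 to 0.39 in LFC. Neutrophils carry Itgam too. Of 7 adipocyte markers, 6 had a higher mean in HFC (median difference 0.30, 1 of 7 at an unadjusted p under 0.05), and their part was not tested. Melanocytes express Gpnmb, and their 5 markers had low mean levels, from -6.36 to -4.89 in HFC and from -6.29 to -4.42 in LFC. On each late array of these diets 1 to 3 of the 5 were well above background, Tyr and Tyrp1 on none. The part of muscle and lymphocytes in the macrophage gene differences was not tested further than by leaving arrays out or adding their levels as covariates. Over the 10 time points the count of 6 genes was also 6 without the 5 arrays with most muscle transcripts and 7 with the muscle and lymphocyte levels as covariates. Over Week 3 to Week 18 the count of 3 became 5 and 7. Genes with an unadjusted p under 0.05 in either direction, which numbered 1165 of 19876 and 1067 of 21092 in these comparisons, then numbered 1201 of 19471 and 1249 of 19876 over the 10 time points, and 1398 of 20966 and 1997 of 21092 over Week 3 to Week 18.

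Read time point by time point, the macrophage genes did not stay apart at a fixed distance. All 9 were higher in HFC at Day 14 (differences of 0.13 to 3.31, median 2.14), at Week 6 (0.18 to 4.08, median 2.41) and at Week 15 (0.20 to 1.71, median 0.88). At Week 18, 8 of 9 were higher with the largest median of any time point (2.57), and Itgam was the exception. The LFC array of Week 18 was the dimmest of the 39 (75th percentile 107.9, against 320.5 in HFC), with 54.2% of its spots well above background against 66.1%. At Day 6 and Week 3 only 3 and 2 of the 9 were higher in HFC, with medians of -0.33 and -0.63. Both arrays of Day 6 were among those with most muscle transcripts, and the LFC array of Week 3 was the one with most lymphocyte transcripts. These are differences of 2 arrays each, with no replicate check.

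Early and late time points were set against each other in a second fit, in which 1.89% of all genes had an unadjusted p under 0.05. Only Itgam among the 9 genes had such a p. Its HFC minus LFC differences were 0.96 at Day 6, 1.63 at Day 10, 2.10 at Day 14 and 0.61 at Week 0, and ran from -0.99 to 0.82 at the 6 late weeks. The late minus early difference was -1.30 (SE 0.50, p = 0.0249, limma adjusted p = 1.00), and none of the 9 had an unadjusted p under 0.05 with a negative value without Day 10, without Day 14, without the time point as block, under normexp, with array weights or with the muscle and lymphocyte covariates. Markers of other cells had negative values in the same fit, namely 8 of 9 neutrophil markers (median -1.43, 0 at an unadjusted p under 0.05), 8 of 8 of lymphocytes (median -1.50, 1 of them), 12 of 12 of resident macrophages (median -0.82, 3 of them) and 6 of 6 of muscle (median -2.77, 1 of them). Emr1 went the same way (-1.07, SE 0.59, p = 0.0953). Gpnmb (1.34, SE 0.85) and Spp1 (1.47, SE 0.99) went the other way, neither beyond the spread between time points. Taken as a line over Week 0 to Week 18, the high-fat difference of Spp1 had a slope of 0.17 per week (SE 0.08, p = 0.0533) and that of Gpnmb one of 0.16 per week (SE 0.09, p = 0.0979). None of the 9 genes had an unadjusted p under 0.05 in that fit, where 5.08% of all genes had one. The 7 adipocyte markers all had negative values there (median -0.20 per week, 5 of 7 at an unadjusted p under 0.05). All 8 lymphocyte markers had positive values (median 0.30 per week, 0 of 8), as had all 7 epithelial markers (median 0.13, 1 of 7). So had 8 of 9 neutrophil markers (median 0.14, 0 of 9). The part of these cells in the result was not tested.

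**Figure D2:**
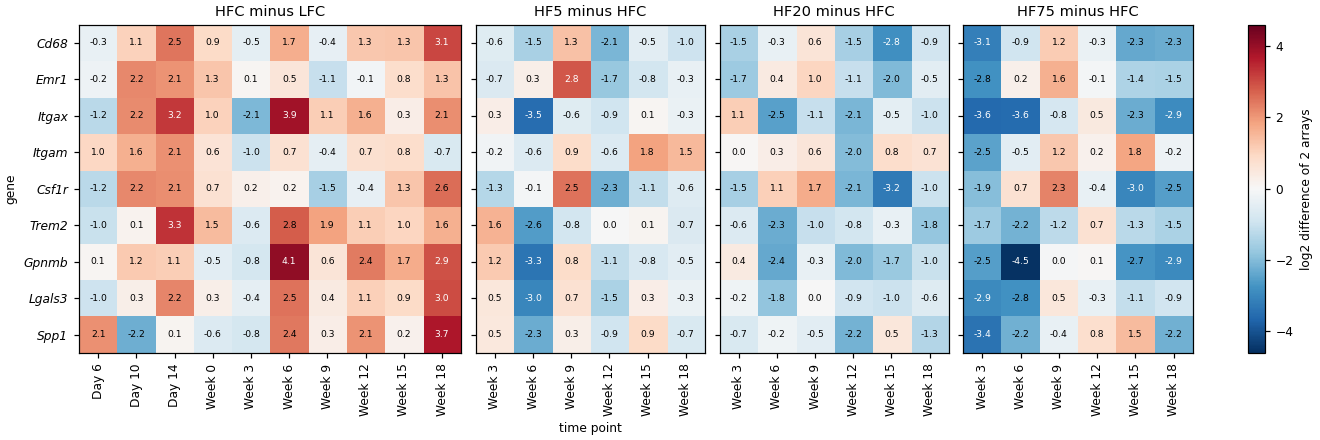
Log2 difference between the arrays of 2 diets at the same time point (colour and number in each cell) for each gene (rows) and time point (columns), for HFC minus LFC and for each KAL-1 dose minus HFC. The cells of Week 6 are warm for HFC minus LFC (0.18 to 4.08) and mostly cool for the doses, which share the HFC array of that week.

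The next comparisons asked how KAL-1 in the high-fat diet changed the macrophage genes, at Week 3 to Week 18. They all use the 6 HFC arrays that the comparison with LFC used, so an HFC array that is high enters all of them. At 75 µg, 8 of the 9 genes had a lower mean than in HFC, with a median difference of -1.18 against 0.00 over all 21092 genes. By limma, 5 of the 9 had an unadjusted p under 0.05 (Gpnmb, Itgax, Trem2, Lgals3 and Cd68), while 3.10% of all genes had such a p with a lower mean in HF75. None passed after adjustment, and neither did any other gene (0 of 21092, with 1059 at an unadjusted p under 0.05).

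Gpnmb had the widest difference of the 9 at this dose. It ran from -4.25 (Week 3) to 0.82 (Week 12) in HF75, with a median of -1.13, against -1.72 to 3.04 in HFC, with a median of 0.89. It was lower in HF75 by 2.12 on the log2 scale, that is -2.12 (SE 0.58, p = 0.00131, limma adjusted p = 0.866). Itgax ran from -5.95 (Week 3) to -0.65 (Week 9) in HF75 against -2.38 to 2.18 in HFC, a difference of -2.10 (SE 0.67, p = 0.00480). Both genes were lower in HF75 at 5 of the 6 weeks. Gpnmb, Itgax and Itgam were well above background on 5 of the 6 HF75 arrays and not on that of Week 3, so their lowest values are not measured levels. Without Week 3 the differences were -2.04 for Gpnmb (p = 0.00189) and -1.81 for Itgax (p = 0.00463). Cd68 differed by -1.31 (SE 0.55, p = 0.0262), Lgals3 by -1.25 (SE 0.51, p = 0.0228) and Trem2 by -1.18 (SE 0.42, p = 0.0103), each lower at 5 of 6 weeks. Spp1 (-0.99, SE 0.65), Csf1r (-0.81, SE 0.60) and Emr1 (-0.64, SE 0.48) had lower means within the spread between weeks, and Itgam differed by 0.01 (SE 0.52). The weeks split unevenly. All 9 genes were lower in HF75 at Week 3 (median -2.79) and at Week 18 (median -2.21), while 5 of 9 were higher at Week 9 (median 0.54) and at Week 12 (median 0.06).

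The Week 3 array of HF75 had the most muscle transcripts of all 39 and the lowest level of 4 of the genes (Cd68, Emr1, Itgax and Gpnmb). It also had the lowest share of spots well above background (49.3%). The 6 muscle genes all had higher means in HF75 than in HFC (median difference 3.25, 3 of 6 at an unadjusted p under 0.05), with mean levels from -2.98 to 7.58 in HF75, and none was at background on every array. Without the 5 arrays with most muscle transcripts, 2 of the 9 genes had an unadjusted p under 0.05, Gpnmb (-1.74, p = 0.00718) and Itgax (-1.49, p = 0.0273). With the muscle and lymphocyte levels as covariates there were 3, Gpnmb (-1.81), Itgax (-1.54) and Cd68 (-0.99). The median over the 9 genes moved from -1.18 to -0.76 and -0.82. Without Week 3 the count was 3, as it was with array weights, and the unmoderated comparison of group means gave 0.

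At 20 µg, 8 of the 9 genes again had a lower mean than in HFC, with a median difference of -0.84 against 0.05 over all genes. Trem2 was the 1 gene of the 9 with an unadjusted p under 0.05, where 1.25% of all genes had such a p with a lower mean. Trem2 ran from 0.03 (Week 3) to 2.14 (Week 6) in HF20 and was below HFC at all 6 weeks, by 1.15 on average, a difference of -1.15 (SE 0.42, p = 0.0117, limma adjusted p = 0.997). Gpnmb differed by -1.17 (SE 0.58, p = 0.0545) and Cd68 by -1.08 (SE 0.55, p = 0.0634). The count of 1 became 3 without Week 3 or without Week 9, and 0 without Week 6 or without Week 18. With the HF5 and HF20 arrays of Week 12 exchanged it was 2, Cd68 (-1.17) and Trem2 (-1.02). Without the 5 arrays with most muscle transcripts it was 3, with the muscle and lymphocyte covariates 6, with array weights 5, and 0 both when slides were a random block and in the unmoderated comparison. The share of all genes in these settings is not set beside these counts. The second probe of Trem2 gave -0.86 (SE 0.46, p = 0.0748). The 6 muscle genes all had higher means in HF20 than in HFC (median difference 1.79, 1 of 6 at an unadjusted p under 0.05), with mean levels from -2.83 to 2.45 in HF20. So did the 9 lymphocyte markers (median 1.20, 1 of 9). Under normexp background correction 5 of the 9 passed after adjustment, Trem2 (-1.53), Lgals3 (-1.36), Cd68 (-1.24) and Emr1 (-1.13) with lower values and Itgam (1.08) with a higher one, but 8085 genes passed with them and the median of all genes was 0.36.

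At 5 µg no gene of the 9 had an unadjusted p under 0.05, where 1.36% of all genes had one in either direction. The differences from HFC ran from -0.82 (Itgax, SE 0.67) to 0.46 (Itgam, SE 0.52), with a median of -0.49. Trem2 had a narrow range in HF5, from 1.61 to 2.29 over the 6 weeks, against 0.66 to 4.43 in HFC. Without Week 3, Trem2 had an unadjusted p under 0.05 (-0.80, p = 0.0353). The 6 muscle genes (median difference 2.60, 2 of 6 at an unadjusted p under 0.05) and the 9 lymphocyte markers (median 0.86, 0 of 9) all had higher means in HF5 than in HFC. The HF5 array of Week 12 had a muscle level of 6.47, and without the muscle-rich arrays the range of the differences was -0.79 (Itgax) to 0.52 (Itgam). Emr1 had no settled direction at this dose, from -0.08 to 0.26 without those arrays.

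Taken as 1 group, the 3 doses gave 8 of 9 genes with a lower mean than HFC (median -0.85) and 4 with an unadjusted p under 0.05, against 1.94% of all genes with a lower mean. These were Gpnmb (-1.30, SE 0.47, p = 0.0114), Trem2 (-0.91, SE 0.34, p = 0.0144), Itgax (-1.31, SE 0.55, p = 0.0263) and Cd68 (-1.03, SE 0.45, p = 0.0315). The mean of the doses was below HFC at all 6 weeks for Trem2 and Itgax. The count depended on the week left out: it was 0 without Week 6, 1 without Week 18 and 7 without Week 9. It was 3 without the muscle-rich arrays, 2 with array weights, and 0 both when slides were a random block and in the unmoderated comparison. The 6 muscle genes (median difference 2.55, 2 of 6 at an unadjusted p under 0.05) and the 9 lymphocyte markers (median 0.79, 0 of 9) all had higher means in the doses than in HFC.

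**Figure D3:**
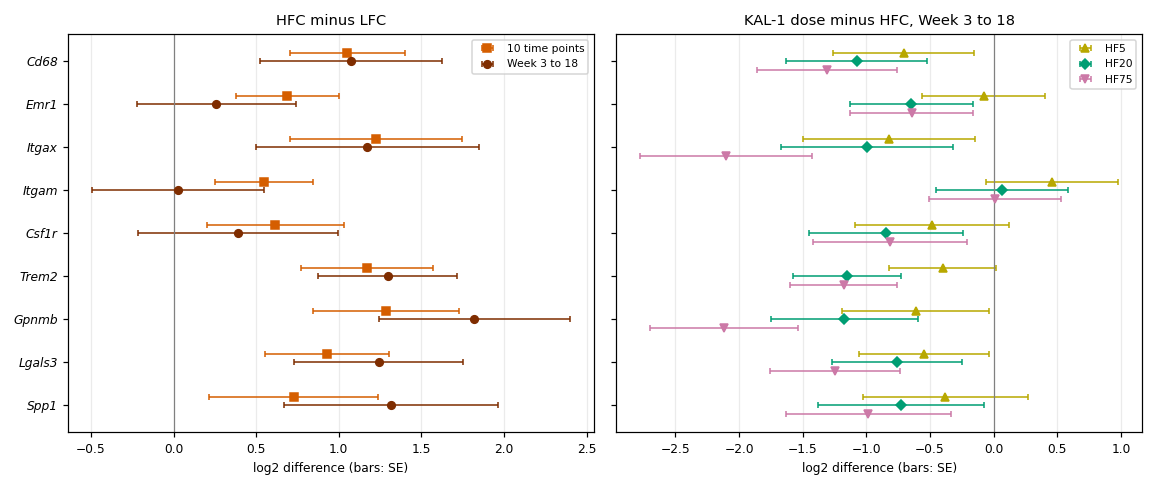
Mean log2 difference (horizontal axis, bars give the SE of the limma fit) of each gene (vertical axis) for HFC minus LFC over 10 time points and over Week 3 to Week 18 (left), and for each KAL-1 dose minus HFC over Week 3 to Week 18 (right). All points on the left are above 0, and on the right Gpnmb and Itgax in HF75 are the farthest from 0, at -2.12 and -2.10.

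The doses were also set against each other and against LFC. Gpnmb was lower in HF75 than in HF5 (-1.51, SE 0.58, p = 0.0159) and was the 1 gene of the 9 with an unadjusted p under 0.05, where 1.19% of all genes had such a p with a lower mean. The second probe of Lgals3 also had such a p (-1.30, SE 0.45, p = 0.00862), where its main probe gave -0.70 (SE 0.51). That second probe was not well above background on the HF75 array of Week 3. The count of 1 gene was 0 without Week 3, Week 15 or Week 18 and 0 without the muscle-rich arrays, 2 without Week 6 and 3 without Week 12. Against LFC, HF5 was higher for Trem2 (0.90, SE 0.42, p = 0.0439) and Gpnmb (1.21, SE 0.58, p = 0.0480) at 6 of 6 weeks each, where 1.02% of all genes had an unadjusted p under 0.05 with a higher mean. This count of 2 was 0 without the time point as block, with the Week 12 arrays exchanged, or without Week 9, Week 12, Week 15 or Week 18, was 1 under normexp or when slides were a random block, and was 4 with array weights and 5 with the covariates. In HF5 against LFC the 6 muscle genes all had higher means (median 0.82) and the 9 lymphocyte (median -0.66) and 10 neutrophil markers (median -0.87) all lower ones. In HF75 against HF5 the muscle genes were again all higher (median 0.66) and the lymphocyte markers all lower (median -0.82). HF20 and HF75 differed from LFC by -0.45 to 0.65 and by -0.93 to 0.33 over the 9 genes, and no gene of the 9 had an unadjusted p under 0.05 in either, where 2.84% and 3.63% of all genes had one. The direction against LFC was not settled for HF75. There 3 of 9 genes had a higher mean (median -0.23), but 9 of 9 with array weights (median 0.34), 9 of 9 with the muscle and lymphocyte covariates (median 0.55), 8 of 9 without Week 3 (median 0.44) and 0 of 9 with the scan day as block (median -0.63). For Trem2 the difference between HF75 and LFC was 0.12 (SE 0.42), which does not show that the diets had the same level.

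Over Week 3 to Week 18 the level of the 9 genes had slopes of -0.04 (Itgax) to 0.07 (Gpnmb) per week with the diets as covariates, and none passed, where 20 of 21092 genes (0.0948%) passed after adjustment and 15.5% had an unadjusted p under 0.05. A slope over weeks leaves no room for the time point as block, so the arrays of a week, most of which share a scan day, were taken as independent, and these p values may be too small. Without Week 3, 2894 genes passed, Itgax (-0.16 per week, limma adjusted p = 0.0246) and Trem2 (-0.09 per week, limma adjusted p = 0.0287) among them.

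Further probes of the same gene were read too. In the comparison of HFC with LFC at all 10 times, the second probes of Trem2, Lgals3, Emr1 and Itgam differed by 1.15 (SE 0.43), 0.94 (SE 0.37), 0.93 (SE 0.40) and 0.66 (SE 0.29). That of Itgam had p = 0.0393, where the first had 0.0912. The other 2 probes of Csf1r gave 0.68 (SE 0.37, p = 0.0905) and 0.93 (SE 0.26, p = 0.00409), where the brightest had given 0.62. The last of them was well above background on 5 of 10 LFC and 10 of 11 HFC arrays, so its difference is not a measured one throughout. For HF75 against HFC the second probe of Trem2 gave -1.09 (SE 0.46) and that of Lgals3, which was well above background on 5 of the 6 HF75 arrays, -1.57 (SE 0.45). The second probe of Itgam gave -0.58 (SE 0.45) where the first gave 0.01, and that of Emr1, which was dim, gave -0.21 (SE 0.65) where the first gave -0.64. The direction of Itgam also turned with the probe in HF5 (-0.19 for the second, 0.46 for the first), in HF20 (-0.55 and 0.07) and for the doses as 1 group (-0.44 and 0.18). Its second probe gave 0.097 per week over Week 3 to Week 18 (p = 0.00621, limma adjusted p = 0.197) where the first gave 0.024.

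Genes that act with the 9 were taken from a list of 11 ligands, adapters and regulators. Between HFC and LFC at all 10 times, 10 of 11 had a higher mean (median 0.41) and 0 of 11 had an unadjusted p under 0.05. Of the ligands of Csf1r, Csf1 differed by 0.32 (SE 0.42) and Il34 by 0.27 (SE 0.21). Sfpi1, which encodes PU.1, differed by 0.32 (SE 0.48), Itgb2, the partner chain of both integrins, by 0.68 (SE 0.39), and Icam1, which they bind, by 0.27 (SE 0.81). The Trem2 adapter Tyrobp differed by 0.68 (SE 0.40), the kinase Syk that it recruits by 0.41 (SE 0.44), and Apoe, a lipid carrier that Trem2 binds, by -0.01 (SE 0.16). The osteopontin receptors Cd44 and Itgav differed by 0.77 each (SE 0.42 and 0.47), and the galectin partner Lgals3bp by 0.54 (SE 0.31). The directions of Csf1, Icam1, Sfpi1 and Apoe each turned under 1 or more alternatives. Over Week 3 to Week 18, Itgav had an unadjusted p under 0.05 (1.47, SE 0.52, p = 0.00980).

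For HF75 against HFC all 11 had a lower mean (median -0.86), and 2 had an unadjusted p under 0.05, Cd44 (-1.29, SE 0.56, p = 0.0307) and Lgals3bp (-0.86, SE 0.40, p = 0.0451). The others were Csf1 (-0.97), Itgb2 (-0.90), Syk (-0.88), Icam1 (-0.87), Tyrobp (-0.53), Sfpi1 (-0.48), Il34 (-0.42), Itgav (-0.41) and Apoe (-0.16). Of all genes, 3.10% had an unadjusted p under 0.05 with a lower mean in HF75. The mean level of the list was -1.06 on the muscle-rich HF75 array of Week 3 and 0.63 to 1.82 at the other weeks of HF75. The directions of Icam1, Sfpi1, Tyrobp and Apoe turned under 1 or more alternatives here. Without Week 3, Tyrobp differed by 0.0041 and Apoe by 0.16. For the doses as 1 group, Lgals3bp had an unadjusted p under 0.05 (-0.72, SE 0.33, p = 0.0387), where 1.94% of all genes had one with a lower mean.

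Other genes of lipid-associated macrophages were followed in a list of 21, mostly lysosomal proteases and lipid handlers. Over Week 3 to Week 18, 17 of 21 had a higher mean in HFC than in LFC (median 0.33), and 3 had an unadjusted p under 0.05 with a higher mean: Mmp12, the macrophage elastase (2.68, SE 0.78, p = 0.00217), Ctsl, the protease cathepsin L (0.91, SE 0.30, p = 0.00672), and the lysosomal membrane gene Cd63 (0.73, SE 0.34, p = 0.0417). Mmp12 also differed by 2.25 (SE 0.62) over the 10 time points. For HF20 and HF75 against HFC, 5 and 3 of 21 had an unadjusted p under 0.05 with a lower mean, against 1.25% and 3.10% of all genes. In both, Mmp12 (-2.39 and -2.17) and Ctsl (-0.83 and -0.73) had the smallest p of the list, but in HF20 the direction of Mmp12 turned under normexp (0.46). The third was Psap, which encodes the saposins (-0.60, SE 0.26), in HF20, and Npc2, a lysosomal cholesterol carrier (-0.84, SE 0.36), in HF75. On the muscle-rich HF75 array of Week 3 the mean level of the list was 1.08, against 2.23 to 2.90 at the other weeks of HF75. For the doses as 1 group 5 of 21 had an unadjusted p under 0.05 with a lower mean, against 1.94% of all genes. Those with the smallest p were Ctsl (-0.70, SE 0.25), Mmp12 (-1.70, SE 0.63) and Ctsb, cathepsin B (-0.39, SE 0.17).

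Of 18 inflammatory genes 17 could be tested. For HFC against LFC, 16 of the 17 had a higher mean over the 10 time points (median 0.81) and over Week 3 to Week 18 (median 1.31). The mean level of the list was nonetheless lower in HFC than in LFC at Day 10 (-2.72 and -0.72), Week 3 (-0.50 and 0.11), Week 6 (0.77 and 1.33) and Week 9 (0.57 and 1.16), and the widest gaps the other way were at Week 12 (1.70 in HFC and -3.65 in LFC) and Week 18 (1.85 and -1.65). The acute-phase gene Saa3 (2.42, SE 0.52, p = 0.000588) and the oxidase subunit Cybb (0.91, SE 0.39, p = 0.0379) had an unadjusted p under 0.05 over the 10 time points. Over the late weeks the cytokine Tnf (2.47, SE 0.92, p = 0.0135), the chemokine Ccl2 (2.46, SE 1.07, p = 0.0316) and the prostaglandin synthase Ptgs2 (2.54, SE 1.18, p = 0.0426) did. For HF75 against HFC all 17 had a lower mean (median -1.44), and the costimulatory Cd86 had an unadjusted p under 0.05 (-1.59, SE 0.69, p = 0.0316). The muscle-rich HF75 array of Week 3 had a mean level of -4.65 with 5 of the 18 genes well above background, and HF75 was above HFC at Week 6 (0.91 and 0.77) and Week 9 (1.60 and 0.57). For HF20 and HF5 against HFC, 14 and 12 of 17 had a lower mean and none had such a p.

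The 12 markers of resident, alternatively activated macrophages had a median difference of 0.40 between HFC and LFC at all 10 times (9 of 12 higher) and -0.0087 over the late weeks (5 of 12 higher). The haemoglobin scavenger receptor Cd163 was the 1 gene of this list with an unadjusted p under 0.05 in HF20 (-1.04, SE 0.46, p = 0.0323), and HF75 had 0 of 12 (median -0.45).

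Across the 39 arrays the 9 genes varied together in part. All 36 pairs had a Pearson's r above 0, from 0.01 (Csf1r and Spp1) to 0.86 (Trem2 and Lgals3), with a median of 0.54 for Pearson's r and 0.49 for Spearman's rho. By a permutation test adjusted over the 36 pairs, 30 pairs had an adjusted p under 0.05 for r and 27 for rho. Emr1, Csf1r and Cd68 had r values of 0.80 to 0.85 with each other, and Itgax, Trem2, Gpnmb and Lgals3 had values of 0.79 to 0.86. Between Emr1 or Csf1r and the second of these sets the values were 0.30 to 0.37 for Trem2 and Gpnmb and 0.48 to 0.56 for Itgax and Lgals3. Cd68 was close to both sets (0.67 to 0.85). For Trem2 and Lgals3 the adjusted p of r was 2.8e-05, from a p of 1e-05 that is the smallest the permutations can give. These sets were named after the values were seen. All arrays share the 75th percentile scale. On each of the 5 arrays with most muscle transcripts the mean of the 9 genes, each in SD units, was below 0.

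The correlations were recomputed in 3 ways. Within time points, as deviations from the time point mean, the r values ran from 0.20 to 0.88 with a median of 0.57. Without the 2 arrays farthest from the median of the first gene of a pair they lay between -0.05 and 0.86 (median 0.46), and without the 5 arrays with most muscle transcripts between -0.07 and 0.86 (median 0.41). Those of Cd68 with Itgam (0.33) and Spp1 (0.34) and of Emr1 with Gpnmb (0.35) fell to 0.16, 0.15 and 0.16 without the 2 farthest arrays. Within time points the same pairs had r values of 0.51, 0.57 and 0.53.

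**Figure D4:**
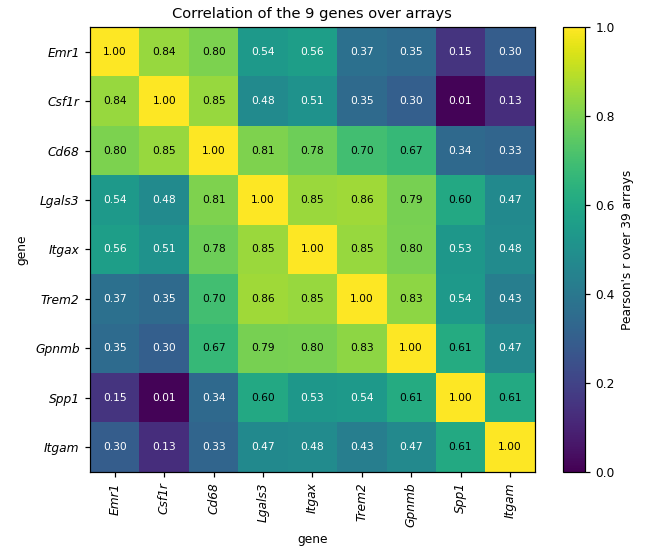
Pearson's r over the 39 arrays (colour and number) for each pair of the 9 genes, in an order chosen after the values were seen. Emr1, Csf1r and Cd68 form a block at the upper left with values of 0.80 to 0.85, Lgals3, Itgax, Trem2 and Gpnmb a block in the middle with values of 0.79 to 0.86, and the highest values of Spp1 are with Gpnmb and Itgam (0.61 each).

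Among 17400 genes outside the lists that were well above background on at least 20 arrays, 5 had the pattern most like the mean of the 9, each gene first put in SD units. They were Igsf6 (r = 0.92), Gm5401 (0.91), Ccl9, a chemokine (0.90), Slfn2 (0.90) and Mpeg1, a perforin-like gene of phagocytes (0.89), over 39 arrays. Without the 5 muscle-rich arrays their r was 0.82 to 0.90. This likeness is a description, since the genes were picked for it.

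**Figure D5:**
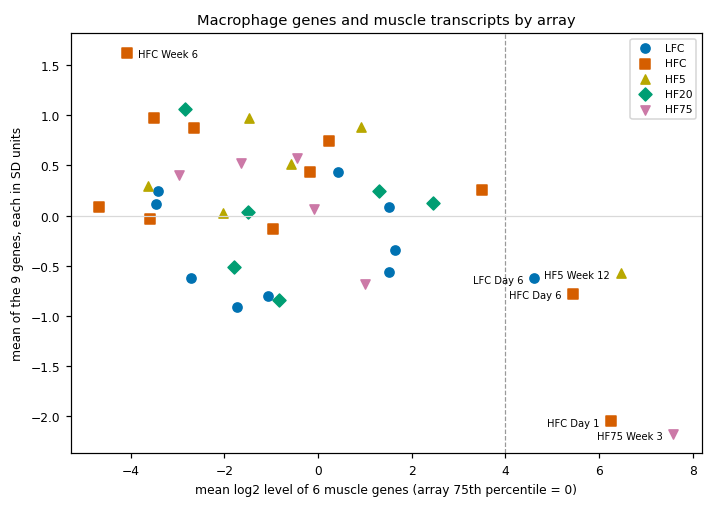
Mean of the 9 genes on each array, each gene in SD units over the 39 arrays (vertical axis), against the mean log2 level of 6 muscle genes (horizontal axis), with a symbol for each diet and a dashed line at the level of 4. The 5 arrays to the right of the line all lie below 0, and HF75 at Week 3 and HFC at Day 1 lie lowest.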

How the data were processed

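Per the file headers, the authors scanned 1-colour Agilent arrays and extracted them with Feature Extraction 10.5.1.1. The deposited array files hold background-corrected spot intensity on a linear scale (75th percentile 108 to 1285 over the 39 arrays). The deposited table of log2 ratios holds the authors' differences between arrays and was used as an alternative only. Columns of per-sample values that were not used numbered 0.

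Intensities were taken as log2, and the log2 75th percentile of each array was subtracted. Control and outlier spots were dropped before repeat spots were averaged, and the probe with the highest mean stood for its gene. A gene was tested if the number of arrays with its probe well above background reached the size of the smallest group. Tests were made with limma 3.58.1 (R 4.3.3, lmFit and eBayes), with the time point, which pairs arrays by their labels, as block except for the change per week, and p values were adjusted by Benjamini-Hochberg over all genes. Correlations used 100000 permutations. Gene names of the Week 9 files, some of which a spreadsheet had turned into dates, were taken from the other files by position. The fits were tested on simulated data.

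The 9 genes and all lists were chosen with earlier results of these data known. The text names all 9 genes, the 11 partner genes, and from each further list up to 3 genes with the smallest unadjusted p under 0.05, except 1 that is not reported here. The alternatives without muscle-rich arrays, with muscle and lymphocyte covariates and without the HF20 array of Week 15 were added after the data were seen. The number of arrays limits the precision.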

Additional observations from a re-analysis of the deposited data

Results flagged for a closer look

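Among 72 groups of 6 or 10 values, 5 had an end value far from the others by Dixon's criterion, of which chance gives about 1 in 20 groups. The Itgax difference between HF5 and HFC at Week 6 was -3.52, and the nearest week was -0.90. The Itgam level of the LFC array of Week 3 was -0.66 and the nearest LFC array -2.19. The LFC array of Week 3 had the highest mean level of all arrays for lymphocyte markers (1.45) and for neutrophil markers (0.39). The part of these cells was not tested. The Itgam difference between HF20 and HFC at Week 12, where the HF5 and HF20 arrays may be exchanged, was -1.996 and the nearest week 0.05, but Itgam was not well above background on that HF20 array, so the value is not a measured difference. The Trem2 difference between HF75 and HFC at Week 12 was 0.72 and the nearest week -1.19. The Lgals3 level of the HF75 array of Week 3, the one with most muscle transcripts, was 0.22 and the nearest HF75 array 3.30.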

How the results depend on the processing

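Of 2442 alternative values for 109 named gene results of the diet comparisons, 2372 kept their direction and side of the threshold, 62 turned direction, 26 of them on leaving out a time point, and 8 passed only in the alternative, all under normexp in HF20. The cause was not tested for any of them. Without the time point as block, which the labels pair, 0 genes passed in HF75 compared with HFC (588 with an unadjusted p under 0.05, against 1059 with the block), and 0 in the other diet comparisons. For HF20 against HFC normexp gave 8085 genes. The change per week (20 genes) gave 1 under normexp, 33 under median centring, 3 with no filter, 489 with array weights, 1 when slides were a random block, 1463 with muscle and lymphocyte covariates, and 0 to 2894 leaving out a week. The change of the high-fat difference per week gave 0 to 29, the 29 without Week 0. The median of all genes moved by over 0.1 under normexp (to 0.36 in HF20), median centring (to -0.22) and no filter (to 0.22).

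Turned values for HFC against LFC over 10 time points were, under normexp, -0.024 (Itgam), 0.27 (Apoe) and -0.47 (Sfpi1). Array weights gave -0.23 (Csf1), -0.49 (Icam1) and 0.055 (Apoe), and the scan day -0.00930 (Csf1) and -0.49 (Icam1). Apoe was 0.39 under quantile normalization, 0.011 under median centring and 0.094 with covariates. Over Week 3 to Week 18, Itgam was -0.44 under normexp, -0.015 under quantile normalization and -0.25 with the scan day. In HF5, Emr1 was 0.096 with the scan day, 0.026 with the slide, 0.033 with Week 12 exchanged, 0.042 in the authors' table and 0.26 without muscle-rich arrays, and Spp1 was 0.092 with weights and 0.090 with the slide. In HF20, Itgam was -0.22 under median centring and -0.076 with covariates, and Mmp12 was 0.46 under normexp. In HF75, Itgam was -0.091 with the scan day and -0.17 with the slide, Spp1 was 0.037 with weights, Icam1 was 0.16 with covariates, Sfpi1 was 0.53 under normexp, and Apoe was 0.094 with the slide, 0.23 without muscle-rich arrays and 0.20 with covariates. For HF75 against HF5, Itgam was 0.077 under normexp, 0.017 with weights and 0.0012 without muscle-rich arrays, and Csf1r was 0.14 with covariates.

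Leaving out 1 time point gave -0.37 to 0.16 (Apoe, HF75), -0.071 to 0.052 (Apoe, 10 time points), -0.0481 to 0.77 (Csf1r, late weeks), -0.66 to 0.25 (Emr1, HF5), -0.42 to 0.80 (Icam1, 10 time points), -0.63 to 0.0035 (Spp1, HF5), -1.06 to 0.042 (Spp1, HF75 against HF5), -0.80 to 0.036 (Trem2, HF5) and -1.10 to 0.0041 (Tyrobp, HF75). For Itgam it gave -0.0814 to 0.48 (HF20), -0.35 to 0.51 (HF75), -0.13 to 0.23 (late weeks) and -0.0824 to 0.39 (doses as 1 group). The slide as a random block could not be fitted for LFC and HFC alone, and for the change per week the fits without block, with the scan day, on the authors' table and unmoderated were not run.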

Other observations

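The HFC array of Day 1 has no LFC array beside it and entered no comparison. Its levels were -1.82 for Cd68, 0.71 for Emr1, -5.78 for Itgax, -4.34 for Itgam, -2.61 for Trem2, -1.20 for Lgals3 and -2.34 for Spp1, and its mean muscle level was 6.25. It was the lowest HFC array for these 7 genes.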
